A study of Mus musculus with 14 samples.

Results

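The 36 genes described here work at the synapse or mark nerve cells, and they were read in chromatin from a muscle cell line. They comprise 8 genes of the synaptic vesicle, 5 glutamate receptor subunits, 5 synaptic adhesion molecules, 7 postsynaptic scaffolds and kinases, 4 voltage-gated channels, 4 neuronal transcription factors and 3 further neuronal markers. They were chosen by name, out of 21887 protein-coding genes in the reference table. A peak counted as theirs where the authors' annotation gave 1 of the 36 as its nearest gene. Of 517058 peaks in 10 lists, 2867 named a member, and every member was named in at least 1 list.

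The peaks come from chromatin immunoprecipitation followed by sequencing (ChIP-seq) in mouse C2C12 myoblasts, an established line that fuses into myotubes in low serum, taken on day 2 of differentiation. The siMyolinc cells had received 10 nM of a small interfering RNA against Myolinc, a long noncoding RNA, before differentiation. The control cells carry no transfection label, and whether they had received a control siRNA is not stated. Antibodies were directed against TDP-43 (1 siMyolinc and 3 control libraries), and against MyoD, Myogenin and the serine 2-phosphorylated form of RNA polymerase II (Pol II S2P), each with 1 siMyolinc and 1 control library. The labels do not say whether the 3 TDP-43 controls came from separate cultures, so a p-value across them measures only the spread between these libraries, which may be technical. The 4 input and IgG samples were not analysed here.

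Synapses pass signals by releasing vesicles, whose fusion is run by SNARE proteins and synaptotagmins, onto glutamate receptors that scaffolds such as the Shank and Dlg proteins hold in place. Neurexins and neuroligins join the membranes on either side. TDP-43 is an RNA- and DNA-binding protein that prefers UG-rich RNA and TG-rich DNA, and in neurons it is known for binding the long introns of synaptic transcripts. MyoD and Myogenin are the muscle transcription factors that bind E-boxes (CANNTG), and Pol II S2P is the elongating polymerase.

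The windows that follow show the 250 bases before an annotated start of the members whose promoter was overlapped by a peak in at least 2 TDP-43 libraries and whose window could be printed, with Gria2 for its Myogenin peak. The bases are from RefSeq, build GRCm38.p6, 5′ to 3′ on the gene's own strand, and the capitals mark bases inside at least 1 of the control peaks named after each.
Myt1l, chr12:29534655-29534904, plus strand, capitals inside the peaks of the TDP-43 control libraries: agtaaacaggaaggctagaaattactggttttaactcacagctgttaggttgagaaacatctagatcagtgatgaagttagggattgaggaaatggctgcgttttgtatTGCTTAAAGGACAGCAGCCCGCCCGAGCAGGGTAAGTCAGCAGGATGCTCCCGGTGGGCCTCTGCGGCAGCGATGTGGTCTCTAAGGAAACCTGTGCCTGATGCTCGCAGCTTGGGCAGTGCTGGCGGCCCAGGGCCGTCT
Cntnap2, chr6:45059811-45060060, plus strand, capitals inside the peaks of TDP-43 controls 2 and 3: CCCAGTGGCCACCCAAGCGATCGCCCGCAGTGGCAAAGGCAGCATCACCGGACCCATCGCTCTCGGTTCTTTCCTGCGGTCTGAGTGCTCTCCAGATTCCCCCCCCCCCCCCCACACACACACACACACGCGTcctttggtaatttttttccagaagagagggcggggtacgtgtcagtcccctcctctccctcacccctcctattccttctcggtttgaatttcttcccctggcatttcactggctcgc
Syn2, chr6:115134652-115134901, plus strand, capitals inside the peaks of TDP-43 controls 2 and 3: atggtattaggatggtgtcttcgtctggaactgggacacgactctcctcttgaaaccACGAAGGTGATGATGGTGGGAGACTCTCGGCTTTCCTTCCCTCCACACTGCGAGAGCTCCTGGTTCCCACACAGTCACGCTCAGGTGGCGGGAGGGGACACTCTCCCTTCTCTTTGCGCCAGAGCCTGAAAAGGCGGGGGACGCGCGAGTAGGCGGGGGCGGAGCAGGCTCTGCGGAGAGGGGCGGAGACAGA
Gria2, chr3:80802836-80803085, minus strand, capitals inside the peak of the Myogenin control: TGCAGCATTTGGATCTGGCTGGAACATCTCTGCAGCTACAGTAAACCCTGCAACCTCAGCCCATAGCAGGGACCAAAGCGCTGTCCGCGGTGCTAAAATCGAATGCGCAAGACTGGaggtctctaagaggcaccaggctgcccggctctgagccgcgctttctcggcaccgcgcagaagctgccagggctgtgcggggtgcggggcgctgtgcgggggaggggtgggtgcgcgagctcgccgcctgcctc

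The motif TGTGTG, searched on both strands with overlapping matches counted, occurred 6 times in the Cntnap2 window, in a CA run that the control 3 peak covers and the control 2 peak does not reach, and 1 time in the Syn2 window. It was absent from the Myt1l and Gria2 windows. Over the 39 windows of the 24 members in the promoter table, 6 held it (15.4%), against 17.9% of all 32851 windows. The E-box CANNTG occurred in 24 member windows (61.5%), against 66.2% of all windows, and the median GC content was 53.2% in member windows and 52.4% in all. The members' promoters therefore held neither motif more often than promoters at large. The 4 printed windows were richer in G and C than the member median or level with it, at 53.2% for Myt1l, 59.6% for Cntnap2, 61.2% for Syn2 and 64.8% for Gria2.

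Depth differed among the lists and moved with the condition for 2 antibodies. If peak scores are scaled to 10000000 tags, which no header states, the TDP-43 siMyolinc library held 3253050 tags, against 1394410, 1086960 and 962387 in the TDP-43 controls, and Pol II S2P held 3774950 tags in siMyolinc and 1455040 in control cells. The 4 MyoD and Myogenin libraries held between 3040130 and 3400220. The lists ran from 8162 peaks (TDP-43 control 3) to 116064 (Pol II S2P siMyolinc). Peaks in the MyoD and Myogenin siMyolinc lists were 75 bp wide with a median of 24 and 137 tags, whereas those of the other 8 lists were at least 217 bp wide with medians of 6 to 15 tags. The part these differences play in any contrast between conditions was not tested. Muscle genes were also named: of 10 muscle markers, 4 had a peak in the TDP-43 siMyolinc list, against 7, 4 and 3 in the controls. Of protein-coding genes 45.2% in siMyolinc and 49.3%, 26.8% and 22.3% in the controls had one. A TDP-43 promoter peak was present for 0 markers in siMyolinc, against 2, 1 and 1 in the controls (Myod1 and Myog in control 1, Myod1 in control 2 and Ckm in control 3). The shares of protein-coding genes were 2.49% in siMyolinc and 5.09%, 2.12% and 1.65% in the controls. MyoD promoter peaks lay at 2 markers in siMyolinc and 0 in control cells (11.2% and 4.02% of protein-coding genes). In the same order, those of Myogenin lay at 0 and 2 (2.46% and 6.47%), and those of Pol II S2P at 3 and 2 (8.90% and 1.55%). Peak lists give occupancy and not expression, so neither the muscle identity nor the silence of the neuronal genes was read from them.

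The members took up a small and similar share of every list. For TDP-43, 127 of the siMyolinc peaks named a member, against 115, 49 and 40 in controls 1, 2 and 3. As shares these were 0.509% in siMyolinc and 0.387%, 0.464% and 0.490% in the controls, and the siMyolinc value lay just above the control range (control mean 0.447% ± 0.0534, SD, n = 3; exact two-sided permutation test, p = 0.5). MyoD had 613 member peaks in siMyolinc and 464 in control cells, shares of 0.560% and 0.645%. Myogenin had 100 member peaks in siMyolinc and 694 in control cells, shares of 0.489% and 0.603%, so the number of peaks differed far more than the share. Pol II S2P had 618 member peaks in siMyolinc and 47 in control cells, shares of 0.532% and 0.439%. By Newcombe's method from the Wilson bounds, the 95% interval of the difference (siMyolinc minus control, percentage points) was -0.160 to -0.0135 for MyoD, -0.213 to -0.000727 for Myogenin and -0.0558 to 0.211 for Pol II S2P. For MyoD and Myogenin the interval included 0 when peaks under the median score were dropped, with lists of equal length and with peaks inside gene spans. These intervals rest on numbers of peaks and carry counting error alone, and they say nothing of the spread between cultures. Amplified copies of a molecule may also have been counted as separate tags.

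How many members were named followed the length of the list. With TDP-43, 27 members had a named peak in siMyolinc, against 30, 21 and 21 in the controls, where 45.2% of protein-coding genes in siMyolinc and 49.3%, 26.8% and 22.3% in the controls had one. With MyoD the counts were 34 members in siMyolinc and 33 in control cells (75.7% and 64.9% of protein-coding genes). With Myogenin they were 26 in siMyolinc and 34 in control cells (39.7% and 73.2%), and with Pol II S2P 36 in siMyolinc and 22 in control cells (77.0% and 26.8%). In every list the members' share was above that of protein-coding genes, and the members are long: their median span was 134.7 kb, against 17.2 kb for protein-coding genes. Of the 36, 12 were named in all 10 lists.

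**Figure D1:**
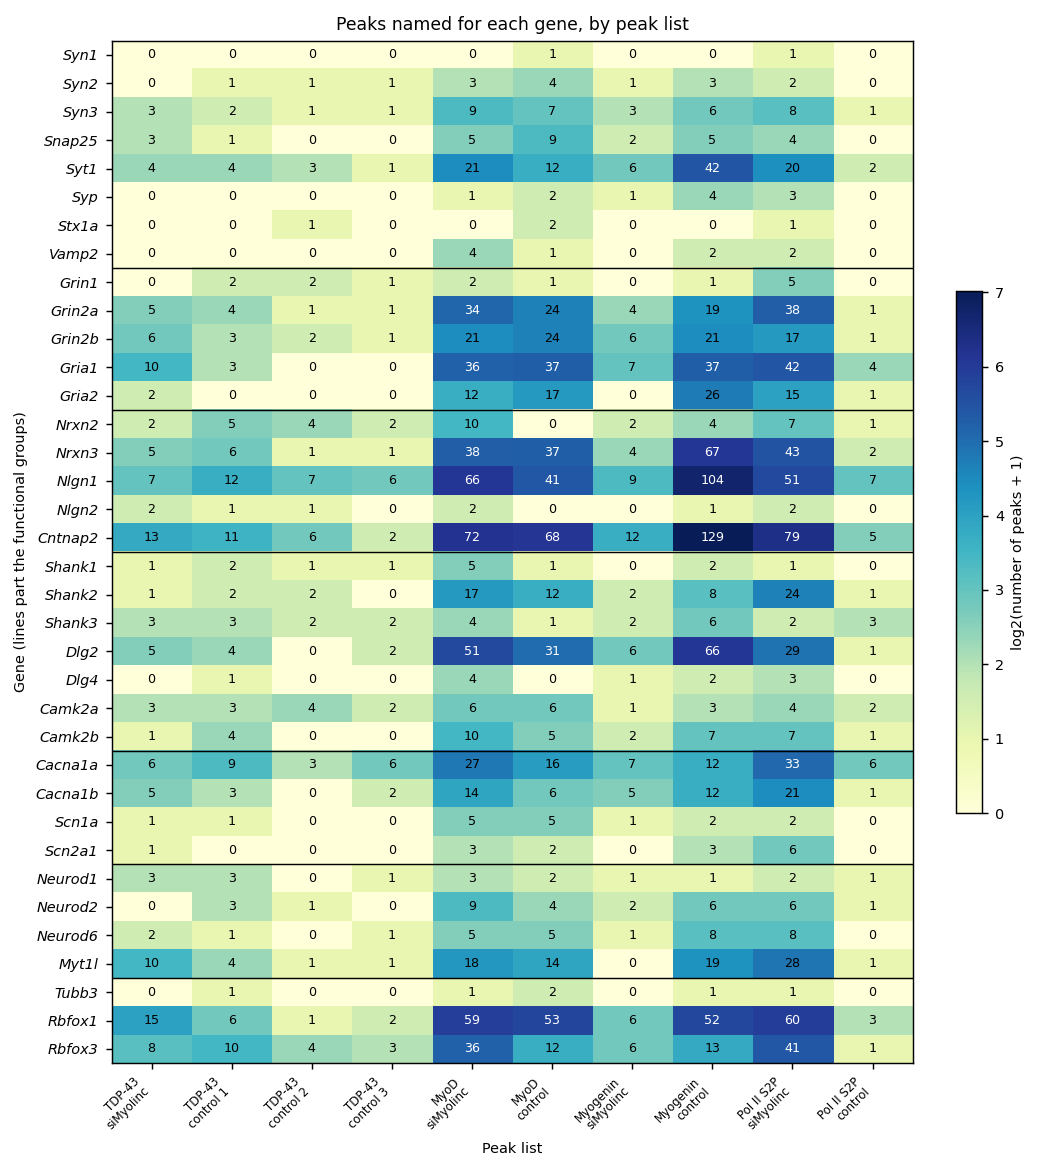
Number of peaks that named each of the 36 genes (rows, with lines between functional groups) in each of the 10 lists (columns), printed in the cells and coloured on a log2(number + 1) scale. The highest counts sit with the longest genes, such as 129 Cntnap2 peaks in the Myogenin control and 104 Nlgn1 peaks in the same list.

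Cntnap2, Nlgn1 and Rbfox1 were the members most often among the 3 most named of a list. Cntnap2, a contactin-associated adhesion protein and at 2241 kb the longest member (chr6:45060061-47301393), was named by 13 TDP-43 peaks in siMyolinc and by 11, 6 and 2 in the controls. Its MyoD peaks numbered 72 in siMyolinc and 68 in control cells, its Myogenin peaks 12 in siMyolinc and 129 in control cells, and its Pol II S2P peaks 79 in siMyolinc and 5 in control cells. Cntnap2 was among the 3 most named members in 9 of the 10 lists, TDP-43 control 3 excepted. Nlgn1, a neuroligin that binds neurexins across the synapse, had 7 TDP-43 peaks in siMyolinc and 12, 7 and 6 in the controls over a span of 911 kb, and it led in controls 1 and 2. Rbfox1, an RNA-binding splicing regulator of neurons and muscle, led the TDP-43 siMyolinc list with 15 peaks, against 6, 1 and 2 in the controls. Nrxn3, a neurexin, was among the leading members in the Myogenin control, with 67 peaks. Gria1, an AMPA receptor subunit, was among them in TDP-43 siMyolinc, with 10 peaks against 3, 0 and 0 in the controls. Myt1l was level with Gria1 there, with 10 peaks against 4, 1 and 1 in the controls. Cacna1a was level with Nlgn1 at the head of TDP-43 control 3 (6 peaks). It was also among the leading members in Myogenin siMyolinc (7 peaks, level with Gria1) and the Pol II S2P control (6 peaks). Rbfox3 was among them in TDP-43 controls 1, 2 and 3 (10, 4 and 3 peaks), and Camk2a and Nrxn2 in control 2 (4 peaks each).

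Peaks of the authors' class promoter-TSS are called promoter peaks here. In every list, and not in the TDP-43 controls alone, a larger share of the members than of protein-coding genes had such a peak. In all, 2 members had 1 in the TDP-43 siMyolinc list, against 5, 8 and 8 members in controls 1, 2 and 3. Of all protein-coding genes, 2.49% had such a peak in siMyolinc and 5.09%, 2.12% and 1.65% in the controls. As shares of the 36 members the counts come to 5.56% in siMyolinc and 13.9%, 22.2% and 22.2% in the controls, above the share of protein-coding genes in each list. Among genes of 100 kb or longer the shares were 3.79% in siMyolinc and 10.3%, 4.32% and 3.29% in the controls, while of the 20 members that long 1 had a promoter peak in siMyolinc and 4, 7 and 6 in the controls. The siMyolinc count lay below all 3 controls (control mean 7 ± 1.73, SD, n = 3; exact two-sided permutation test, p = 0.25), and 0.25 is the smallest p that 3 libraries against 1 can give. Over the 9 quantities tested this way the adjusted p was 0.643 or more (Benjamini-Hochberg), so none of these contrasts passed 0.05. The siMyolinc library with fewer promoter members was also the deeper one, with more peaks than controls 2 and 3.

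The control promoters recurred between libraries. A promoter peak in 2 or 3 of the TDP-43 controls was present for 7 members, 19.4% of the 36, against 1.60% of protein-coding genes and 3.71% of those of 100 kb or longer. Of the 20 members that long, 6 had one. In all 3 controls it was present for Cacna1a, Camk2a and Myt1l, 8.33% of the members against 0.288% of protein-coding genes. These 3 genes encode the pore of the P/Q-type calcium channel, a calcium- and calmodulin-dependent kinase of the postsynaptic density, and a zinc finger factor of neuronal identity. Earlier results of these data already showed neuronal promoters in the TDP-43 controls, so the count is a description of the list and no independent evidence.

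**Figure D2:**
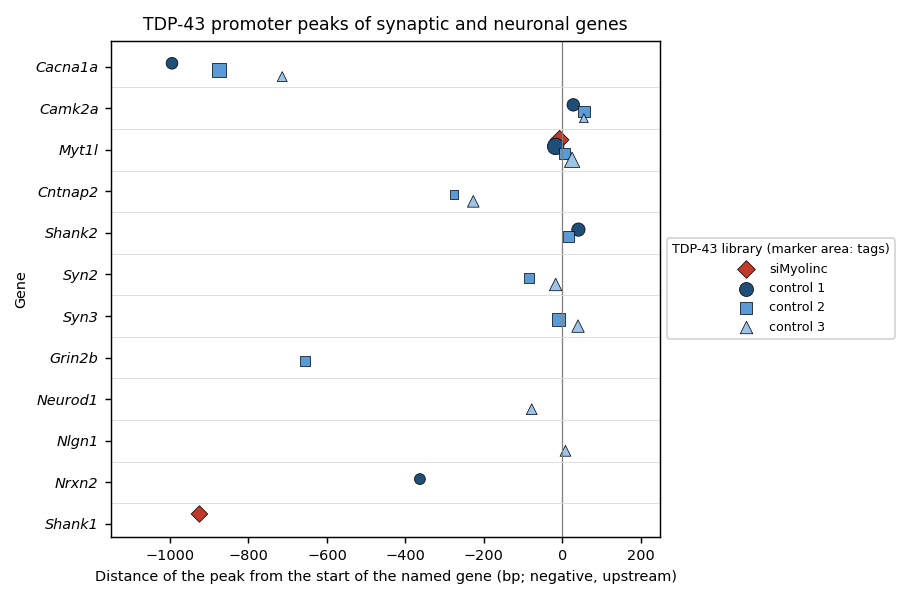
Each TDP-43 promoter peak of the 36 genes by its distance from the start of the named gene (bp, negative upstream), with siMyolinc as diamonds and the 3 controls as circles, squares and triangles, and marker area in proportion to the peak's tags. Cacna1a, Camk2a and Myt1l carry 3 control markers each, and siMyolinc markers appear at Myt1l and Shank1.

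Myt1l was the member with a promoter peak in both conditions. Its peak held 9 tags in siMyolinc and 14, 6 and 12 tags in the controls, with centres between 17 bp upstream and 25 bp downstream of an annotated start, and Pol II S2P had 10 tags at the same place in control cells and no peak there in siMyolinc. The exact Poisson 95% interval of the siMyolinc value ran from 4.12 to 17.1 tags, and the libraries differ in depth, so the tag numbers of the 2 conditions are given side by side without a comparison. Cacna1a had no promoter peak in TDP-43 siMyolinc and 7, 10 and 5 tags in the controls, 995, 874 and 714 bp before a start inside the gene. MyoD also had a Cacna1a promoter peak, of 22 tags and 156 bp upstream in siMyolinc and of 9 tags and 974 bp upstream in control cells, and the control MyoD peak overlapped the TDP-43 site. Camk2a had no promoter peak in TDP-43 siMyolinc and 8, 7 and 4 tags in the controls, 28 to 56 bp after its start, and a MyoD siMyolinc peak of 22 tags overlapped them. Camk2a and Cacna1a were thus occupied at the start in every TDP-43 control list and in no TDP-43 siMyolinc list.

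The synapsins coat synaptic vesicles, and those with a TDP-43 promoter peak had it in the same 2 controls. Syn2 had no such peak in siMyolinc or control 1 and 5 and 8 tags in controls 2 and 3, 84 and 17 bp upstream, inside the capitals of the window printed above. Syn3 had none in siMyolinc or control 1 and 9 and 8 tags in controls 2 and 3, within 40 bp of a start. Cntnap2 followed the same pattern, with 4 and 7 tags in controls 2 and 3 at 276 and 227 bp upstream, the control 3 peak alone reaching the CA run of its window. Shank2, a postsynaptic scaffold, had no TDP-43 promoter peak in siMyolinc or control 3 and 9 and 6 tags in controls 1 and 2, and a Pol II S2P control peak of 9 tags lay at the same start. Single control lists gave Grin2b, an NMDA receptor subunit (5 tags, control 2), Neurod1, a bHLH transcription factor (6 tags, control 3), Nlgn1 (6 tags, control 3) and the neurexin Nrxn2 (6 tags, control 1). Shank1, another scaffold, had a promoter peak of 7 tags in siMyolinc, 925 bp upstream, and none in the controls.

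Promoter peaks of MyoD, Myogenin and Pol II S2P fell partly on the same members. MyoD had promoter peaks at 7 members in siMyolinc and at 3 in control cells, or 19.4% and 8.33% of the members. Of protein-coding genes 11.2% and 4.02%, and of those of 100 kb or longer 13.8% and 4.86%, had one. Of the 20 members that long, 3 had one in siMyolinc and 3 in control cells. The MyoD siMyolinc peaks were at Dlg4, the scaffold PSD-95 (26 tags), Nrxn2 (23 tags), Cacna1a and Camk2a (22 tags each), the neuroligin Nlgn2 (17 tags), the vesicle protein Syp (11 tags) and Shank2 (9 tags). The MyoD control peaks were at Cacna1a (9 tags), Rbfox1 (8 tags) and Nlgn1 (6 tags), so Cacna1a was the member both MyoD lists named. Myogenin had promoter peaks at 2 members in siMyolinc and at 4 in control cells, or 5.56% and 11.1% of the members. Of protein-coding genes 2.46% and 6.47%, and of the long ones 3.91% and 8.44%, had one, as had 2 and 3 of the 20 long members. The Myogenin siMyolinc pair was Syt1, the calcium sensor of vesicle release (178 tags), and Rbfox3, the splicing factor detected as NeuN (156 tags). The Myogenin control peaks were at Gria2, an AMPA receptor subunit (25 tags), the bHLH factor Neurod6 (22 tags) and Nlgn1 (8 tags), and at Scn1a, a sodium channel (25 tags), where the promoter class referred to the noncoding gene Gm13629. That Scn1a peak was the 1 of 50 member promoter peaks whose class referred to another gene.

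Pol II S2P had promoter peaks at 8 members in siMyolinc and at 2 in control cells, or 22.2% and 5.56% of the members. Of protein-coding genes 8.90% and 1.55%, and of the long ones 12.8% and 3.29%, had one, as had 6 and 2 of the 20 long members. In siMyolinc the Pol II S2P promoter peaks were at Rbfox3 (17 and 12 tags at 2 starts), Nrxn3 (17 tags), the SNARE protein Stx1a (14 tags), Gria1 and Gria2 (13 tags each), Cntnap2 (12 tags at a start far inside the gene), Shank2 (9 tags) and the bHLH factor Neurod2 (7 tags). In control cells they were at Myt1l (10 tags) and Shank2 (9 tags). Gria2 thus had promoter peaks of Pol II S2P in siMyolinc and of Myogenin in control cells, the Myogenin peak centred 288 bp upstream and the Pol II S2P peak 71 bp downstream. With 1 library in each condition these antibodies have no replicate check and no test. Over all lists 25 members had a promoter peak and 11 had none. Syp, Stx1a, Syt1, Neurod6 and Scn1a fall outside the rule for named genes and were named after their values were seen, to complete these counts.

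By annotation class, member peaks in the TDP-43 controls were classed as exon or promoter more often than those in siMyolinc. The class is that of the transcript under the peak, which can belong to a neighbour of the named gene. Exon peaks that named Cacna1b, for example, lay in Ehmt1 in siMyolinc and in controls 1 and 3. How many exon and intron peaks lay in a neighbour was not counted. Exons held 3.15% of TDP-43 member peaks in siMyolinc, against 9.57%, 10.2% and 17.5% in the controls (control mean 12.4% ± 4.41, SD, n = 3; exact two-sided permutation test, p = 0.5). Promoters held 1.57% in siMyolinc, against 4.35%, 16.3% and 20.0% in the controls (p = 0.5, same exact test), and introns 59.8% in siMyolinc, against 55.7%, 46.9% and 32.5% (p = 0.5, same exact test). Intergenic peaks, those outside every gene of the authors' annotation, made up 35.4% in siMyolinc and 26.1%, 20.4% and 22.5% in the controls (p = 0.25, same exact test). Some of these peaks lay inside the RefSeq span of Cacna1a and are also counted below as peaks in its body. For each of these 4 classes the siMyolinc library lay outside the range of the 3 controls, without passing 0.05. All peaks of the lists lay the same way in each class. Exons held 6.93% of all peaks in siMyolinc and 18.8%, 24.1% and 25.6% in the controls, and promoters 2.53% in siMyolinc and 4.37%, 4.95% and 5.22% in the controls. Introns held 40.2% of all peaks in siMyolinc and 32.4%, 28.1% and 27.4% in the controls, and intergenic peaks 46.9% in siMyolinc and 39.3%, 37.0% and 35.7% in the controls. Member exon shares were below those of all peaks in each of these lists. Member promoter shares were below those of all peaks in siMyolinc, level in control 1 and above in controls 2 and 3.

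Pol II S2P showed a like contrast, with 1.78% of member peaks in exons in siMyolinc and 10.6% in control cells (Wilson 95% intervals 1.00 to 3.16% and 4.63 to 22.6%), a difference of -8.86 percentage points. Without the peaks under the median score it was -18.4, and without repeats -16.5. The same shares over all Pol II S2P peaks were 3.76% in siMyolinc and 21.4% in control cells. MyoD had 1.31% of member peaks in exons in siMyolinc and 0.647% in control cells, and Myogenin 1.00% in siMyolinc and 0.720% in control cells. Over all peaks the exon shares were 3.68% in siMyolinc and 1.85% in control cells for MyoD, and 6.25% in siMyolinc and 1.84% in control cells for Myogenin. Introns held 60.8% of MyoD member peaks in siMyolinc and 64.4% in control cells, and 63.0% of Myogenin member peaks in siMyolinc and 61.4% in control cells, against 38.1 to 40.9% of all peaks in these 4 lists. Repeats, as the detailed annotation names them, held 32.3% of TDP-43 member peaks in siMyolinc and 30.4%, 30.6% and 17.5% in the controls, against 34.3% of all peaks in siMyolinc and 30.6%, 30.0% and 27.4% in the controls.

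**Figure D3:**
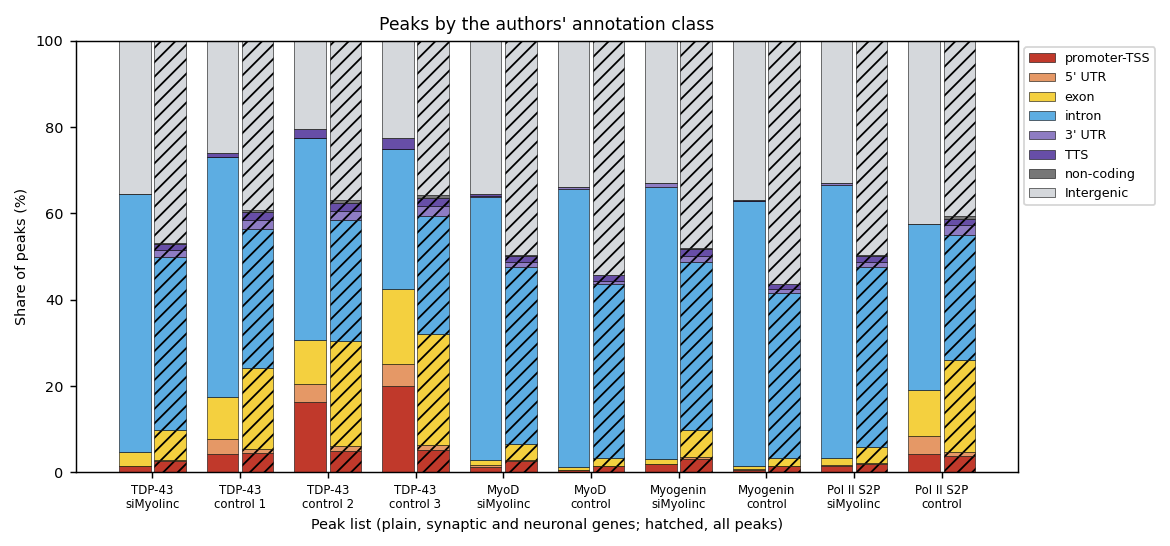
Share of peaks (%) by the authors' annotation class in each of the 10 lists, with plain bars for peaks that named 1 of the 36 genes and hatched bars for all peaks of the list. Among the member bars the exon segment is widest in TDP-43 control 3 and promoter segments are widest in TDP-43 controls 2 and 3. Introns hold a larger share of member peaks than of all peaks in every list.

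To allow for the length of these genes, peaks were also counted per Mb inside the gene spans. The members cover 13.4 Mb, 1.28% of the 1050.6 Mb spanned by protein-coding genes, although they are 0.164% of those genes, and the 5 longest hold 61.6% of that length. TDP-43 had 123 peaks inside member spans in siMyolinc and 155, 69 and 53 in the controls. Per Mb this was 9.17 in siMyolinc and 11.6, 5.15 and 3.95 in the controls, which is 0.714 of the density over all protein-coding genes in siMyolinc and 0.645, 0.769 and 0.743 in the controls. The siMyolinc ratio lay inside the control range (control mean 0.719 ± 0.0651, SD, n = 3; exact two-sided permutation test, p = 1). Ratios for the other antibodies were 0.811 in siMyolinc and 0.944 in control cells for MyoD, 0.707 in siMyolinc and 0.919 in control cells for Myogenin, and 0.780 in siMyolinc and 0.766 in control cells for Pol II S2P. No list had a density in member bodies above that over protein-coding genes. A peak lay in the body of all 20 members of 100 kb or longer in TDP-43 siMyolinc and of 17, 14 and 14 of them in the controls, where 82.6% of genes that long had one in siMyolinc and 81.3%, 51.5% and 43.3% in the controls. For MyoD it was 20 in siMyolinc and 20 in control cells (99.1% and 98.6% of long genes), for Myogenin 16 in siMyolinc and 20 in control cells (77.9% and 99.2%), and for Pol II S2P 20 in siMyolinc and 17 in control cells (99.1% and 52.6%).

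Long genes carry fewer peaks per Mb in these lists, and against genes of 100 kb or longer the ratios came closer to 1. They were 0.885 in TDP-43 siMyolinc and 1.01, 1.20 and 1.21 in the controls, and the siMyolinc value lay below all 3 (control mean 1.14 ± 0.113, SD, n = 3; exact two-sided permutation test, p = 0.25, the smallest possible). They were 0.959 in siMyolinc and 0.974 in control cells for MyoD, 0.899 in siMyolinc and 0.939 in control cells for Myogenin, and 0.916 in siMyolinc and 1.18 in control cells for Pol II S2P. The exact Poisson 95% interval included 1 in all lists except Pol II S2P siMyolinc (0.843 to 0.993). Without Cacna1a, which was set aside after its values were seen, the TDP-43 control ratios were 0.872, 1.01 and 0.888 and the siMyolinc ratio 0.803, and the Pol II S2P ratios were 0.860 in siMyolinc and 0.896 in control cells.

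**Figure D4:**
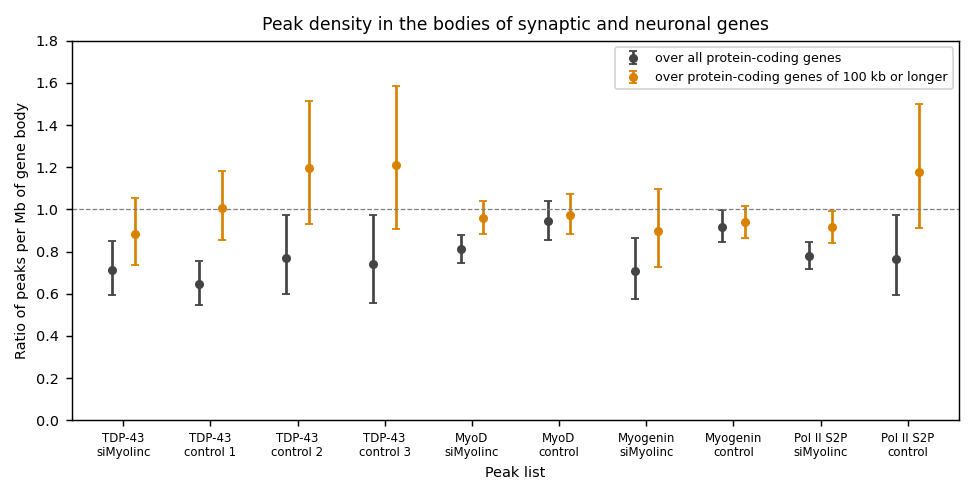
Ratio of peaks per Mb of gene body in the 36 genes to that over all protein-coding genes (dark points) and over protein-coding genes of 100 kb or longer (orange points), with exact Poisson 95% intervals on the members' count, in each of the 10 lists. All dark points lie below 1, and the orange points of TDP-43 controls 2 and 3 and of the Pol II S2P control lie at 1.18 to 1.21.

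Densities were also set beside those of protein-coding genes in the same length class. The 9 members of 20 to 100 kb had 34.6 TDP-43 peaks per Mb in siMyolinc and 61.1, 32.6 and 22.4 in the controls, which is 2.30 times the density of protein-coding genes of that length in siMyolinc and 2.76, 4.22 and 3.51 times in the controls. The 7 members under 20 kb had 3 TDP-43 peaks in siMyolinc and 4, 2 and 1 in the controls, or 54.2 per Mb in siMyolinc and 72.3, 36.1 and 18.1 per Mb in the controls. Their ratios were 2.47 in siMyolinc and 1.54, 1.86 and 1.16 in the controls, with exact Poisson 95% intervals that include 1 in each list. For Pol II S2P the ratio in the class of 20 to 100 kb was 1.14 in siMyolinc and 3.47 in control cells. For MyoD this ratio was 1.67 in siMyolinc and 1.29 in control cells, and for Myogenin 2.39 in siMyolinc and 1.44 in control cells. In this class the interval included 1 in the Pol II S2P siMyolinc list (0.800 to 1.58) and the MyoD control list (0.801 to 1.98). Shank3, a scaffold of 67.2 kb, had 6 TDP-43 peaks in its body in siMyolinc and 8, 3 and 4 in the controls, and Grin1, the obligatory NMDA receptor subunit, had 1 in siMyolinc and 3, 3 and 2 in the controls. The 11 members of 400 kb or more lay below their class in every list, at 0.778 in TDP-43 siMyolinc and 0.868, 0.842 and 0.688 in the controls. Their exact Poisson 95% interval included 1 in every list except TDP-43 siMyolinc (0.601 to 0.989). The 9 members of 100 to 400 kb were at 1.63 in TDP-43 siMyolinc and 1.77, 2.31 and 3.25 in the controls. That class rested on Cacna1a, and without it the ratios were 1.21 in siMyolinc and 1.01, 1.25 and 1.45 in the controls.

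Cacna1a (chr8:84338631-84640251, 301.6 kb) held 14 TDP-43 peaks in its body in siMyolinc and 24, 12 and 15 in the controls. It thus held 18.4% of the control TDP-43 peaks inside member bodies on 2.25% of their length. With the other antibodies it had 38 MyoD peaks in siMyolinc and 22 in control cells, 8 Myogenin peaks in siMyolinc and 20 in control cells, and 48 Pol II S2P peaks in siMyolinc and 17 in control cells. Rbfox3 (421.8 kb) was the next in TDP-43, with 12 in siMyolinc and 21, 8 and 4 in the controls. Gria1 and Gria2 had 3 and 2 TDP-43 peaks in their bodies in siMyolinc and none in the 3 controls. Of the peaks inside member spans, 22.8% to 54.5% named another gene as nearest, depending on the list, since HOMER names the nearest start.

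**Figure D5:**
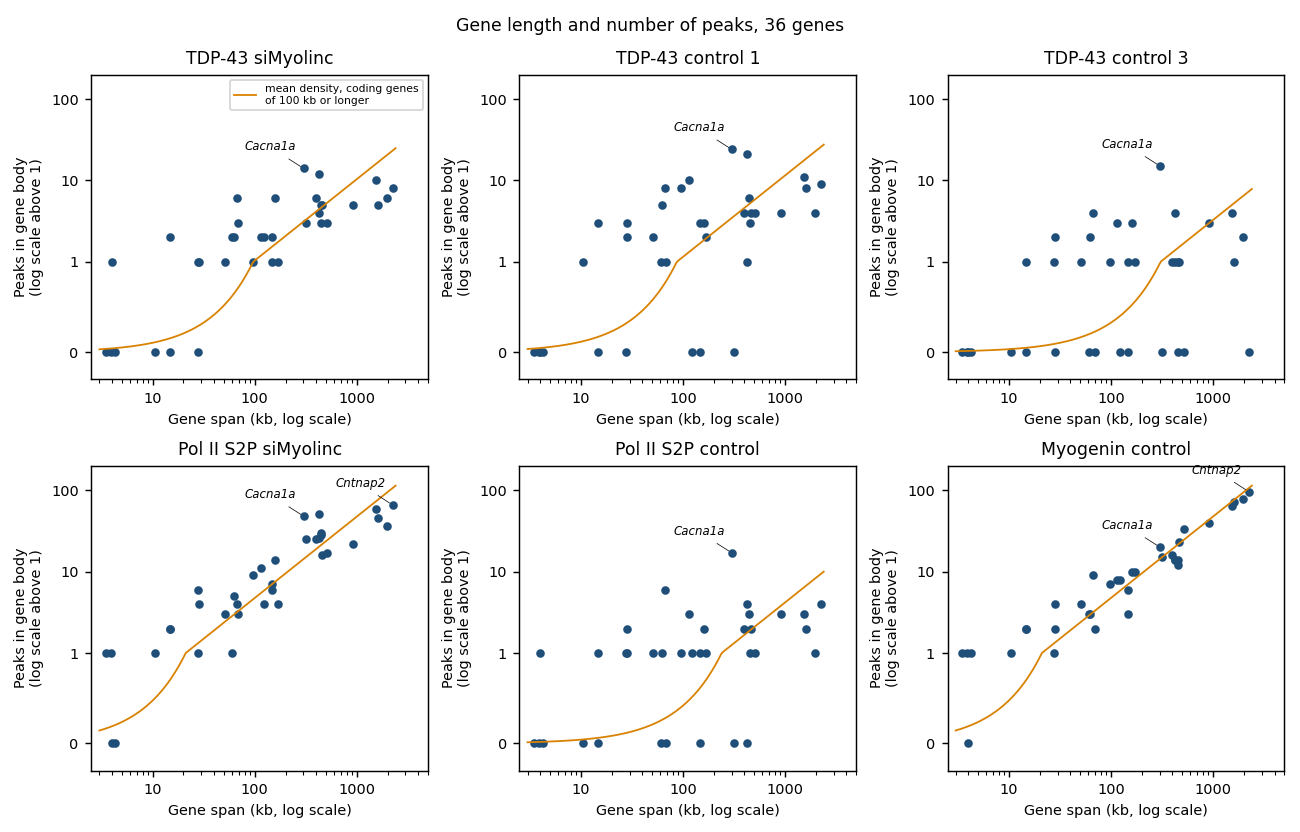
Gene span (kb, log scale) against the number of peaks in the gene body (log scale above 1) for the 36 genes in 6 lists, with a line at the mean density of protein-coding genes of 100 kb or longer. Points follow the line in the Myogenin control and Pol II S2P siMyolinc lists, whereas Cacna1a lies far above it in the 3 TDP-43 lists and the Pol II S2P control list.

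How closely the count of body peaks followed length differed between lists. Across the 36 genes, Spearman's rho of span with body peaks was 0.81 in TDP-43 siMyolinc and 0.61, 0.36 and 0.34 in the controls, 0.88 in MyoD siMyolinc and 0.92 in control, 0.69 in Myogenin siMyolinc and 0.96 in control, and 0.91 in Pol II S2P siMyolinc and 0.52 in control. These are descriptions across genes of 1 library each, and genes are not replicates. The lowest values belonged to the lists with fewest member peaks, those of TDP-43 controls 2 and 3 and the Pol II S2P control.

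By function, each of the 7 groups was named in every list. Adhesion genes had most peaks in TDP-43, at 29 in siMyolinc and 35, 19 and 11 in the controls. Their density in the gene body was 4.50 per Mb in siMyolinc and 6.95, 3.88 and 1.63 per Mb in the controls, the lowest of the groups in siMyolinc and in controls 2 and 3. Channel genes had the highest density, at 28.3 per Mb in siMyolinc and 37.3, 15.4 and 24.4 in the controls. Of their body peaks Cacna1a held 14 of 22 in siMyolinc and 24 of 29, 12 of 12 and 15 of 19 in the controls. The density of the group thus rested largely on that gene. Glutamate receptor genes had 23 TDP-43 peaks in siMyolinc and 12, 5 and 3 in the controls. Scaffold and kinase genes had 14 in siMyolinc and 19, 9 and 7 in the controls, and vesicle genes 10 in siMyolinc and 8, 6 and 3 in the controls. Transcription factor genes had 15 in siMyolinc and 11, 2 and 3 in the controls, and Myt1l had 10 of these peaks in siMyolinc and 4, 1 and 1 in the controls. Neuronal markers had 23 in siMyolinc and 17, 5 and 5 in the controls, with 15 of the siMyolinc peaks at Rbfox1 and 8 at Rbfox3.

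Few control sites returned in siMyolinc. Of member peaks in a TDP-43 control, a mean of 29.8% overlapped a peak of another control by 1 bp or more, and a mean of 5.16% overlapped a siMyolinc TDP-43 peak. For example, 5 of the 115 member peaks of control 1 overlapped a siMyolinc peak, against 16 that overlapped control 2 and 15 that overlapped control 3. All peaks behaved alike, at 5.88% of control 1 peaks in siMyolinc and 13.4% and 10.9% in controls 2 and 3, so the low return was shared by the lists as a whole. Of MyoD control member peaks 1.72% were overlapped in siMyolinc (1.77% of all peaks), and of Pol II S2P control member peaks 4.26% (10.5% of all peaks). For Myogenin none of the 694 control member peaks was overlapped, which allows a share of up to 0.432% by the limit of 3 counts and of 0.550% by the Wilson bound, against 0.355% of all peaks. TDP-43 and Pol II S2P control lists shared sites: 12.2%, 22.4% and 25.0% of member peaks in TDP-43 controls 1, 2 and 3 overlapped a Pol II S2P control peak, and 12.0%, 19.7% and 21.6% of all peaks did.

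The 2867 member peaks fell on 2659 sites, of which 2502 belonged to a single list, 125 to 2 lists and 32 to 3 or more. Of those 32, 28 held a peak of at least 1 TDP-43 control, 8 a TDP-43 siMyolinc peak and 7 lay in annotated repeats. The site shared most widely was in intron 2 of Grin2b (chr6:136172043-136172598), over CACG and CG simple repeats, with 7 TDP-43 tags in siMyolinc and 8, 7 and 7 in the controls, 13 MyoD tags in siMyolinc and 5 Pol II S2P tags in control cells. Myt1l's promoter and this Grin2b site were the 2 of 10 sites of all 3 TDP-43 controls that also had a TDP-43 siMyolinc peak. Sites of 5 lists were that Myt1l promoter, a SINE in intron 4 of Cacna1a (chr8:84515787-84516080; 16 TDP-43 tags in siMyolinc and 19, 0 and 6 in the controls), the first exon and intron of Nlgn2 (7 in siMyolinc and 16, 8 and 0 in the controls) and exon 6 of Nrxn3 (0 in siMyolinc and 17, 5 and 8 in the controls). The Cacna1a SINE was also the strongest TDP-43 siMyolinc member peak.

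Sites present in the 3 TDP-43 controls and in no siMyolinc TDP-43 list numbered 8. They included the Cacna1a and Camk2a promoters and the Nrxn3 exon. A site that named Nrxn2 (6, 8 and 8 tags) lay 5688 bp upstream of its start, outside its span. It was around exon 13 of a transcript there and not in an exon of Nrxn2. Intron 1 of Nrxn2 held another (5, 6 and 10 tags, over a CGTG simple repeat). The others were in the 5′ UTR of Rbfox1 (11, 6 and 7 tags), in intron 16 of Shank3 (21, 7 and 5 tags) and in intron 1 of Rbfox3 (10, 8 and 10 tags). The Shank3 intron held the strongest member peak of control 1, and a site 58367 bp upstream of the Cacna1a start used by the authors, called intergenic there but inside the RefSeq span, held those of controls 2 and 3 (14 and 15 tags), with 13 MyoD tags in siMyolinc and 9 Pol II S2P tags in control cells. Pol II S2P control peaks lay at 6 of the 10 sites of all 3 TDP-43 controls. Sites of 4 lists were also at Shank3 intron 5, with 20 Myogenin tags in control cells, and upstream of Syn3 in an ERVK element, with 6 or 7 tags in each of 4 control lists.

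The remaining sites of 3 lists paired TDP-43 with other antibodies at channel, scaffold, kinase and adhesion genes. At Cacna1a, intron 1 had 12, 0 and 8 TDP-43 tags in the controls and 9 Pol II S2P tags in control cells, and at Cacna1b, the N-type calcium channel, exon 19 had 6 TDP-43 tags in control 3, with 26 MyoD and 14 Pol II S2P tags in siMyolinc. A site 6514 bp upstream of Camk2a had 12 MyoD tags in siMyolinc, and 5 TDP-43 tags in control 2 and 5 Pol II S2P tags in control cells. Intron 2 of Camk2b, a related kinase, had 14 MyoD tags in siMyolinc and 11 in control cells, with 6 TDP-43 tags in control 1. None of these 4 sites held a TDP-43 siMyolinc peak.

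Among the scaffolds, exons 6 and 7 of Dlg4 had 20 Pol II S2P tags in siMyolinc, 11 TDP-43 tags in control 1 and 12 Myogenin tags in control cells. A start of Shank2 had 9 MyoD and 9 Pol II S2P tags in siMyolinc and 9 TDP-43 tags in control 1. In Shank3, intron 10 had 7 TDP-43 tags in siMyolinc and 11 in control 1, with 13 Pol II S2P tags in siMyolinc, and intron 9 had 8 TDP-43 and 23 MyoD tags in siMyolinc and 12 Myogenin tags in control cells. The Shank3 introns were thus the scaffold sites of 3 lists with a TDP-43 siMyolinc peak. At Nlgn1, the 5′ UTR had 15 and 7 TDP-43 tags in controls 1 and 2 and 5 Pol II S2P tags in control cells, and a site 1543 bp upstream had 7 and 10 TDP-43 tags in controls 2 and 3 and 10 Myogenin tags in control cells.

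Receptor genes and Neurod2 held the last of these sites. At Gria1 an ERVK element 330097 bp upstream had 6 TDP-43 and 32 MyoD tags in siMyolinc and 5 Pol II S2P tags in control cells. At 86352 bp upstream of Gria1 TDP-43 siMyolinc had 13 tags, Pol II S2P siMyolinc 17 and the Myogenin control 10, with no TDP-43 control peak. In intron 2 of Grin2a a TG simple repeat had 7 TDP-43 tags in control 1, 10 MyoD tags in siMyolinc and 15 Myogenin tags in control cells. At the 5′ end of Grin1, TDP-43 controls 2 and 3 had 6 and 8 tags and Pol II S2P siMyolinc had 12. A site 12049 bp downstream of the Neurod2 start had 25 MyoD and 13 Pol II S2P tags in siMyolinc and 9 TDP-43 tags in control 1. In intron 1 of Neurod2 MyoD had 18 tags in siMyolinc and 6 in control cells and Myogenin 45 in siMyolinc, the 1 recurrent site without TDP-43 or Pol II S2P peaks.

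In each of the other 6 lists a strongest member peak stood at a site of fewer lists: Dlg2 intron 2 in a LINE (65 MyoD tags, siMyolinc), an intron at Shank2 (23 MyoD tags, control), Cacna1b intron 16 (287 Myogenin tags, siMyolinc), Cntnap2 intron 1 (39 Myogenin tags, control), an intergenic site nearest to Gria2 (31 Pol II S2P tags, siMyolinc) and Cntnap2 intron 10 in a LINE (10 Pol II S2P tags, control). In the Pol II S2P control the Myt1l promoter, a site of 5 lists, held the same 10 tags.

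Further synaptic and neuronal genes were counted in the same way. Of 35 such genes, among them Homer1, Gad2 and Mapt, none had a TDP-43 promoter peak in siMyolinc, and 2, 1 and 0 had one in the controls, where 2.49% of protein-coding genes in siMyolinc and 5.09%, 2.12% and 1.65% in the controls had one. They were Homer1, a scaffold, and Slc32a1, the vesicular GABA transporter, in control 1 and Sv2a, a vesicle protein, in control 2, all named after their values were seen. MyoD had promoter peaks at 2 of the 35 genes in siMyolinc and 1 in control cells (11.2% and 4.02% of protein-coding genes). Myogenin had them at 1 in siMyolinc and 1 in control cells (2.46% and 6.47%). For Pol II S2P it was 3 in siMyolinc and 1 in control cells (8.90% and 1.55%). Their density in gene bodies was 0.539 of that over protein-coding genes in TDP-43 siMyolinc and 0.551, 0.499 and 0.537 in the controls. The difference between these genes and the 36 members was not tested.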

How the data were processed

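Peaks were deposited as 10 lists, 1 for each library, called against IgG and annotated on mm10 with HOMER, per the file headers and the submitters' processing notes. HOMER's version, the aligner and the settings of peak calling were not given in the sources used here. The deposited peak score is the authors' own value for each peak. With the 1% highest scores set aside, scores were whole multiples of a step within a tolerance of 0.05 in 100% of peaks. The step was chosen as the value that made most of these scores whole. The score divided by the step is given as tags, with exact Poisson intervals at 95%. Shares carry Wilson intervals at 95%. The deposited distance to the nearest start was used as given. Mitochondrial peaks were left out of class shares and overlaps.

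Gene spans, protein-coding status and names came from RefSeq on GRCm38.p6, the build named mm10. Of 22839 gene identifiers in the lists, 22771 were found in it, and Scn2a1 was matched through an older name. A peak was in a gene body if its midpoint lay within the span. Densities were checked on simulated peaks. The test across TDP-43 libraries was an exact two-sided permutation of 3 controls and 1 siMyolinc library. No covariate was used.

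The members, the lists and the tests were chosen with earlier results of these data known. Genes named with values were those with a promoter peak in any TDP-43 list or in 2 or more of the 10 lists, the 3 most named members and the highest member peak of each list, and sites of 3 or more lists. Alternatives changed peak score thresholds, list length, promoter and overlap definitions, gene length, background and libraries. Python 3.11.15, numpy 2.4.6, pandas 2.3.3, scipy 1.17.1 and matplotlib 3.10.9 were used.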

Additional observations from a re-analysis of the deposited data

How the results depend on the processing

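Of 133 alternative values for 25 results, 99 were labelled the same, 25 moved and 9 reversed. A TDP-43 difference counted as the same if it kept its sign, whatever its size. Differences in promoter members for the other antibodies had to keep their sign and stay within a set ratio. The remaining results had to stay inside the counting error or spread of the reported value. Differences are siMyolinc minus control. With peaks inside gene spans in place of named peaks, the difference in member share was -0.115 percentage points for TDP-43, reversing 0.0618, and -0.113 for Pol II S2P, against 0.0939. It was 0.252 for Pol II S2P when peaks under the median score were dropped, and -0.184 for MyoD with lists of equal length (8162 peaks), against -0.0859. The intervals of the MyoD and Myogenin differences, which exclude 0 in the reported form, included it without the peaks under the median score (-0.136 to 0.0584 for MyoD, -0.217 to 0.0854 for Myogenin), with equal length (-0.442 to 0.0704 and -0.388 to 0.0901) and inside gene spans (-0.106 to 0.0328 and -0.143 to 0.0639). The differences were then -0.0377 and -0.0815, -0.184 and -0.147, and -0.0357 and -0.0475. The Pol II S2P difference in exon share was -8.86 percentage points, -18.4 without the peaks under the median score and -16.5 without repeats. The difference in members with a promoter peak was 4 for MyoD but -1 without the peaks under the median score and 0 with lists of equal length. For Myogenin it was -2 but -1 without those peaks, 1 with equal length, -4 with promoters of 1000 bp and -15 with promoters of 5000 bp. For Pol II S2P it was 6 but -2 with equal length and 15 with promoters of 5000 bp. The TDP-43 difference of -5 kept its sign in every alternative run, at -2.67 without the peaks under the median score, -3.67 with equal length, -6 with promoters of 1000 bp and -7 with promoters of 5000 bp.

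Density ratios depended on the allowance for length. With the stretch nearest to the start as length they were 0.952 in siMyolinc and 0.822 in control cells for TDP-43, 1.05 in siMyolinc and 1.23 in control cells for MyoD, 0.919 in siMyolinc and 1.15 in control cells for Myogenin, and 0.997 for Pol II S2P siMyolinc. Against genes of 100 kb or longer they were 0.885 in siMyolinc and 1.14 in control cells for TDP-43, 0.959 for MyoD siMyolinc, 0.899 for Myogenin siMyolinc, and 0.916 in siMyolinc and 1.18 in control cells for Pol II S2P. With lists of equal length they were 0.935 in siMyolinc and 1.05 in control cells for MyoD and 1.03 for the Myogenin control. Without Cacna1a, an alternative chosen after seeing the data, they were 0.584 for the TDP-43 controls and 0.582 for the Pol II S2P control. With peaks extended by 500 bp, 9.60% of TDP-43, 11.2% of MyoD, 0.576% of Myogenin and 14.9% of Pol II S2P control member peaks were overlapped in siMyolinc. The cause of these changes was not tested.

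Leaving out each TDP-43 control in turn gave a difference in share of 0.0319 to 0.0834, in members with a promoter peak of -6 to -4.5 and in exon share of -10.7 to -6.74. The control density ratio was 0.694 to 0.756, the share of control peaks in siMyolinc 4.67 to 5.56% and in another control 23.3 to 40.9%. No paired analysis was possible because siMyolinc and control groups share fewer than 2 replicate numbers. Tag numbers of 4 to 14 behind the control promoter peaks limit them, and sites under the calling threshold cannot be told from unbound ones.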
